A study of Mus musculus with 12 samples.

Results

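The effect of alginate oligosaccharides (AOS) on liver RNA was measured over all 12 libraries of the study together, the 6 liver libraries with AOS (A10 and BA10) against the 6 without it (A0 and BA0), with busulfan (yes or no) as a covariate. The members were the 12979 of 17871 genes that had at least 10 reads in at least 3 of the 12 libraries, and the question was which of these genes moved alike in the mice with and without busulfan. A10 mice received AOS at 10 mg/kg by oral gavage every day for 5 weeks, and A0 mice received water in the same way. BA10 mice were injected once in the abdomen with busulfan at 40 mg/kg and then given the same AOS course, and BA0 mice (B0 in the series' own text) received busulfan and then water. All were male, were 3 weeks old at the start, with no engineered allele named, and the strain is spelled IRC in the labels and ICR in the methods. Each of the 4 groups had 3 libraries. The tissue field of the labels says cells while the protocols name the liver. All 13 hepatocyte markers in the file passed the filter, with summed levels between 95654 and 126541 CPM (counts scaled to a common library total, after adjustment by the trimmed mean of M values, TMM) in every library. The sources do not say that each library is a separate mouse, so every p-value measures the spread between these libraries, which may in part be technical.

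AOS are short sugar chains cut from alginate, a polysaccharide of brown seaweed, and are taken by mouth as a food-derived supplement. Busulfan is an alkylating drug that damages DNA and is used to empty the bone marrow and the testis of dividing cells. The liver clears such drugs and is built mainly of hepatocytes, with sinusoidal endothelial cells that line the blood channels and take up waste by scavenger receptors, Kupffer cells (resident macrophages) and stellate cells.

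The deposited estimated counts summed to 16487505 to 17031534 per library in A10, 16439485 to 18108415 in A0, 16850959 to 18174565 in BA10 and 16527323 to 17066523 in BA0, so depth hardly differed. A0 replicates 1 and 2 stood apart. Their TMM factors were 0.851 and 0.879, against 0.970 to 1.08 in the other 10 libraries, and a trend over gene length and GC content took up 26.7% and 17.9% of the variance of their deviations, against 0.373% to 8.21% elsewhere. Any difference between A10 and A0 rests in part on these libraries, and list medians without them or with the trends removed are given for several of the lists.

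Pooled over busulfan, no gene passed an adjusted p (Benjamini-Hochberg over all genes) of 0.05 by the edgeR quasi-likelihood test, in either direction. The smallest adjusted p was 0.236, for Zbtb16 and Rasgrp3. At an unadjusted p under 0.05, 912 genes (7.03% of those tested) were higher and 629 (4.85%) were lower with AOS, 1541 in all (11.9%). Limma-trend also called no gene. DESeq2, fitted to the same counts with the same covariate, called 33 genes higher (0.26% of 12707 with an adjusted p) and 12 lower (0.0944%). Of the lower ones, Gdpd3 and Camk2b passed the filter only through libraries without AOS. All 45 had the same sign in both strata, that is in A10 vs A0 and in BA10 vs BA0, 35 had an unadjusted edgeR p under 0.05 in each stratum, and 22 had no overlap between the AOS and the no-AOS libraries in either stratum. A pooled test favours genes that move alike, so these counts describe the calls and do not test their agreement.

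Across all tested genes the strata did not move together. The log2 fold changes of A10 vs A0 and of BA10 vs BA0, which share no library, had the same sign in 6440 genes (49.6%), with 3346 higher in both (25.8%) and 3094 lower in both (23.8%), and their correlation across genes was 0.03 (Pearson) and 0.01 (Spearman), with genes not independent of each other. The typical size of the difference was larger without busulfan, with a median absolute log2 fold change of 0.24 in A10 vs A0 and 0.11 in BA10 vs BA0. An unadjusted p under 0.05 in both strata in the same direction was found for 76 genes (0.586% of those tested), 54 higher (0.416%) and 22 lower (0.17%), and in opposite directions for 65 (0.501%). The 3 AOS libraries lay wholly above or wholly below the 3 others in both strata and in the same direction for 171 genes (1.32%), 115 higher (0.886%) and 56 lower (0.431%), and in opposite directions for 189 (1.46%), 84 of them higher with and lower without busulfan (0.647%) and 105 the reverse (0.809%). A gene counted as moved alike in a formal sense if the larger of its stratum p-values, in the same direction, passed after adjustment. By this conjunction test no gene did, with the smallest conjunction p at 0.00254 (Zbtb16), and none did under any alternative run, DESeq2 included.

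**Figure D1:**
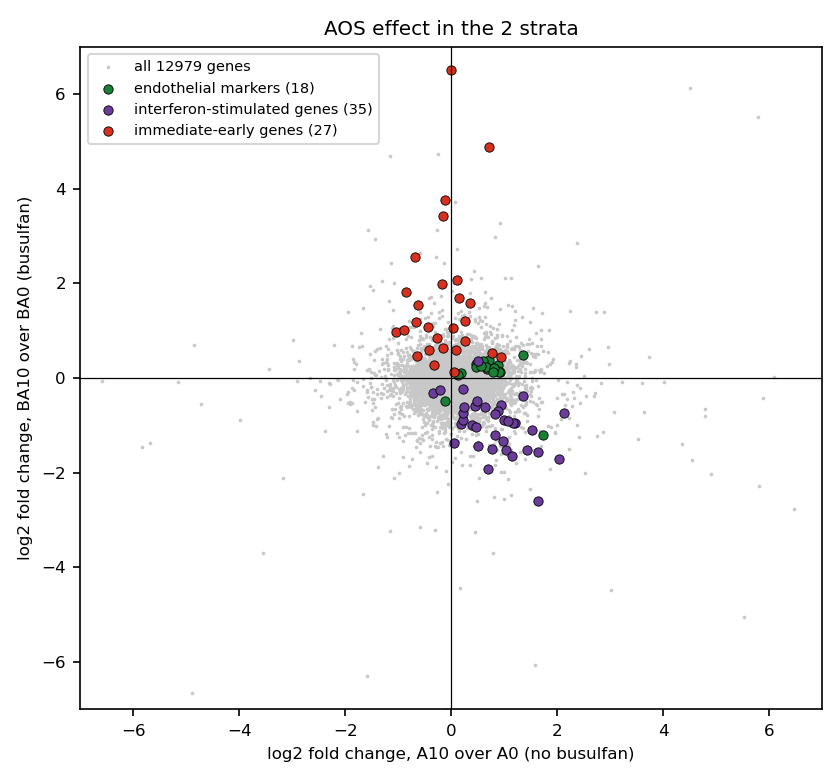
Each point is one of 12979 genes, with the log2 fold change of A10 vs A0 on the horizontal axis and that of BA10 vs BA0 on the vertical axis, both cut at 7 in either direction (19 genes lie outside). The cloud has no slope, with 49.6% of genes of the same sign. Endothelial markers, interferon-stimulated genes and immediate-early genes are coloured.

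Within the strata, 267 genes were called higher (2.06% of those tested) and 193 lower (1.49%) in A10 vs A0, against 6 higher (0.0462%) and 1 lower (0.0077%) in BA10 vs BA0. The 460 calls of A10 vs A0 hung on single libraries: with any 1 of the 12 libraries left out, between 1 and 1701 genes were called, with 1 call left without A0 replicate 1 or without A0 replicate 2 and 1701 without A0 replicate 3. With the length and GC trends removed 3 were called. Every single-gene call of A10 vs A0 given in the text shares this dependence. Of the 267 genes called higher in A10 vs A0, 150 (56.2%) were also positive in BA10 vs BA0, where 48.7% of all genes were positive, and 10 (3.75%) had an unadjusted p under 0.05 there, against 2.24% of all genes. Of the 193 called lower, 63 (32.6%) were also negative in BA10 vs BA0, where 51.3% of all genes were, and 2 had an unadjusted p under 0.05 there, against 2.21% of all genes. Of the 7 genes called in BA10 vs BA0, only Fos had the same sign in A10 vs A0. These BA10 vs BA0 calls were Egr1, Fos, Nr4a1, Junb, Il1b and Ier2, which rose, and Cd163, which fell.

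The genes that came nearest to moving alike are described next. The 12 higher and 12 lower genes with the smallest pooled p, among those with a mean of at least 1 CPM and no overlap in either stratum, are called the leading genes. The absence of overlap was a condition of the choice and is given as a description. Their edgeR adjusted p lay between 0.236 and 0.331 for the higher and between 0.331 and 0.356 for the lower ones, so none passed. DESeq2 called all 12 higher ones (adjusted p 0.000625 to 0.0288) and 6 of the 12 lower ones. An unadjusted p under 0.05 was reached in each stratum by 12 of the higher and 9 of the lower genes, against 0.416% and 0.17% of all genes. The rule of choice favours small stratum p-values, so this count too is only a description.

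Zbtb16 (gene 235320, chr9:48654297-48836222, mm10), a zinc finger transcription factor also known as a target of glucocorticoids, had 16.8, 14.1 and 14.3 CPM in A10 libraries, against 10.6, 11.4 and 11.996 CPM in A0 libraries. In BA10 libraries it had 20.7, 19.9 and 21.1 CPM, against 12.6, 14.4 and 12.2 CPM in BA0 libraries. It was higher in every AOS library than in any library of its own stratum without AOS, although A10 replicates 2 and 3 lay just under BA0 replicate 2. The log2 fold change was 0.53 ± 0.08 (SE, 6 libraries a side) pooled, 0.41 ± 0.11 in A10 vs A0 and 0.65 ± 0.10 in BA10 vs BA0 (edgeR adjusted p 0.236 pooled, DESeq2 adjusted p 0.000625).

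Rasgrp3 (gene 240168, chr17:75435896-75529054), an exchange factor that switches on the small GTPases Ras and Rap, had 6.61, 6.59 and 6.93 CPM in A10 libraries, against 3.41, 3.46 and 3.94 CPM in A0 libraries. With busulfan it had 9.36, 8.95 and 10.4 CPM in BA10 libraries, against 6.93, 6.84 and 7.3995 CPM in BA0 libraries. The AOS libraries were above the others in each stratum, and the level was also higher with busulfan than without, so that the A10 and BA0 values meet. The log2 fold change was 0.90 ± 0.12 in A10 vs A0, where edgeR called it (adjusted p 0.0324), 0.44 ± 0.12 in BA10 vs BA0 and 0.66 ± 0.11 pooled (DESeq2 adjusted p 0.00274).

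Tbc1d2b (gene 67016, chr9:90202027-90270804), which encodes a protein of the family that switches off Rab GTPases, was the 1 leading higher gene whose 6 AOS libraries all lay above the 6 others. It had 37.1, 42.1 and 39.1 CPM in A10 libraries, against 26.7, 28.6 and 30.2 CPM in A0 libraries. The values with busulfan were 48.9, 48.7 and 38.2 CPM in BA10 libraries, against 30.3, 35.1 and 36.4 CPM in BA0 libraries. The log2 fold change was close to equal in both strata, 0.47 ± 0.11 in A10 vs A0 and 0.42 ± 0.11 in BA10 vs BA0.

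Bcl6b (gene 12029, chr11:70224128-70229798), a transcriptional repressor related to Bcl6, was low in expression. It had 1.80, 2.00 and 2.31 CPM in A10 libraries, against 1.34, 1.19 and 1.70 CPM in A0 libraries. In BA10 libraries the values were 6.24, 5.90 and 4.41 CPM, against 2.39, 1.97 and 2.41 CPM in BA0 libraries. The log2 fold change was 0.53 ± 0.22 in A10 vs A0, 1.29 ± 0.21 in BA10 vs BA0 and 0.94 ± 0.18 pooled. The difference between these stratum effects was 0.76 ± 0.30 and was not called by edgeR (adjusted p 0.274).

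The other leading higher genes were Clec4g, described with the endothelial genes, and 7 whose pooled log2 fold changes ran between 0.27 and 1.31. Rgs1, which shortens signalling by G protein-coupled receptors, averaged 1.01 CPM in A10 and 0.352 CPM in A0 libraries, and 2.13 CPM in BA10 and 0.927 CPM in BA0 libraries (pooled log2 fold change 1.31 ± 0.28). Hecw2, a ubiquitin ligase, was 0.85 ± 0.18 higher on the log2 scale, Ppp1r16b, a regulatory subunit of protein phosphatase 1, 0.60 ± 0.12, and Cemip2, a cell surface protein that degrades hyaluronan, 0.50 ± 0.11. Pik3c2a, a class II phosphoinositide kinase, was 0.50 ± 0.11 higher, and Klf3, a Krüppel-like repressor, 0.33 ± 0.07. Ddx6, an RNA helicase of the bodies in which messenger RNA is stored and decayed, was the most abundant of the 12, with means of 84.6 CPM in A10 and 67.8 CPM in A0 libraries, and of 97.4 CPM in BA10 and 83.7 CPM in BA0 libraries (0.27 ± 0.06). All 7 had a smaller log2 fold change in BA10 vs BA0 than in A10 vs A0.

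**Figure D2:**
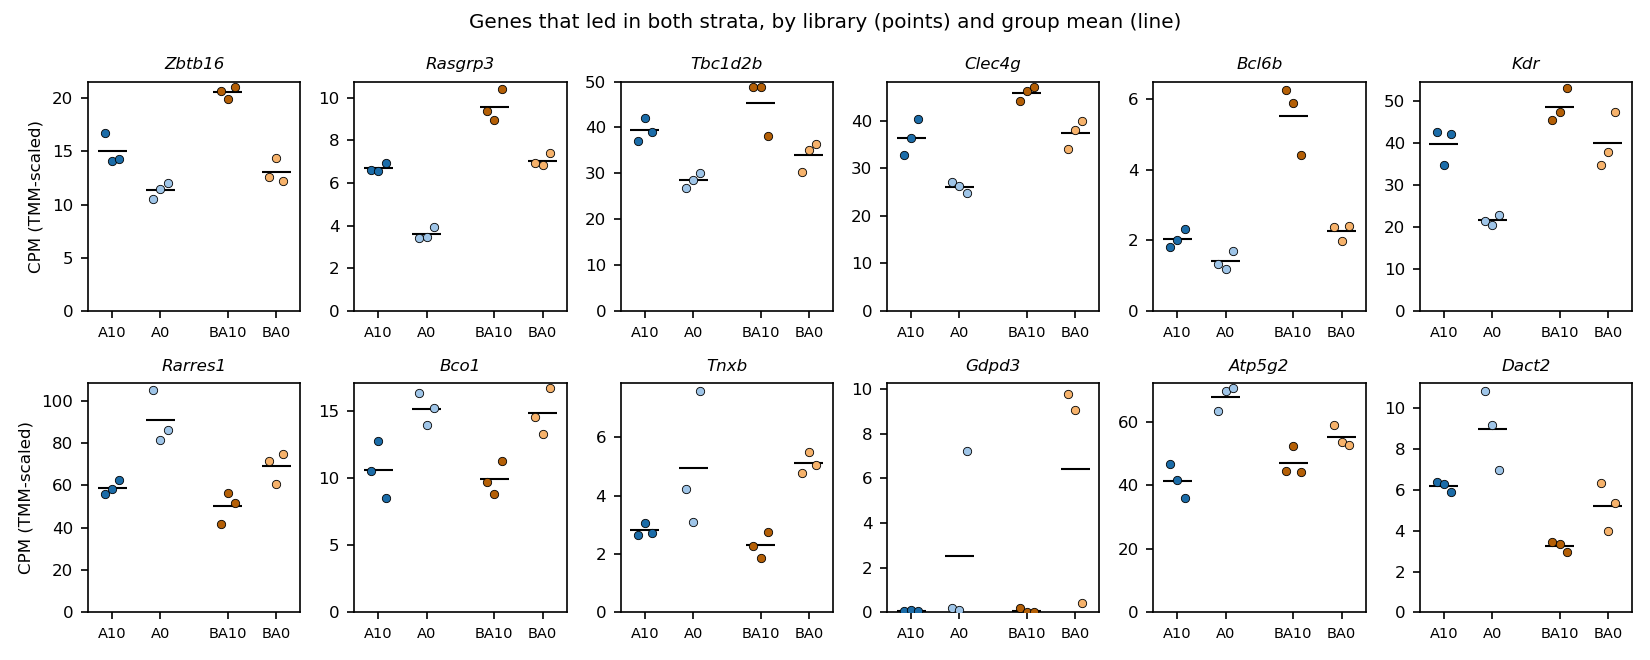
Levels of 12 genes in CPM (each axis from 0) in the 3 libraries of A10, A0, BA10 and BA0, 1 point a library with a bar at the group mean. The upper row holds genes higher with AOS (Zbtb16, Rasgrp3, Tbc1d2b, Clec4g, Bcl6b, Kdr) and the lower row genes lower with AOS (Rarres1, Bco1, Tnxb, Gdpd3, Atp5g2, Dact2), and the AOS points lie on 1 side of the others within each stratum except for Kdr with busulfan, where BA10 replicates at 45.4 and 47.3 CPM meet BA0 replicate 3 at 47.3 CPM. For Gdpd3 the values near 0 lie close together without overlap.

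Among the leading lower genes, Rarres1 (gene 109222, chr3:67478972-67515523), a retinoid-responsive gene that encodes a carboxypeptidase inhibitor, had the smallest DESeq2 adjusted p (0.000625). It had 56.0, 58.0 and 62.7 CPM in A10 libraries, against 105, 81.5 and 86.1 CPM in A0 libraries. With busulfan the values were 41.8, 56.5 and 51.9 CPM in BA10 libraries, against 71.6, 60.4 and 75.03 CPM in BA0 libraries. The difference was of similar size in both strata, with log2 fold changes of -0.63 ± 0.13 in A10 vs A0 and -0.46 ± 0.13 in BA10 vs BA0.

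Bco1 (gene 63857, chr8:117095854-117133720), the enzyme that cleaves β-carotene to vitamin A aldehyde, had 10.6, 12.8 and 8.55 CPM in A10 libraries, against 16.3, 14.0 and 15.3 CPM in A0 libraries. It had 9.73, 8.79 and 11.3 CPM in BA10 libraries, against 14.6, 13.3 and 16.7 CPM in BA0 libraries. All 6 AOS libraries lay below all 6 others, as they did for 6 of the 12 leading lower genes. The log2 fold change was -0.52 ± 0.16 in A10 vs A0 and -0.58 ± 0.16 in BA10 vs BA0 (DESeq2 adjusted p 0.0109).

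Tnxb, the matrix glycoprotein tenascin-X, had 2.67, 3.06 and 2.71 CPM in A10 libraries, against 4.21, 3.08 and 7.57 CPM in A0 libraries. It had 2.26, 1.86 and 2.76 CPM in BA10 libraries, against 4.78, 5.51 and 5.05 CPM in BA0 libraries. The groups are clear of each other with busulfan and nearly touch without it, at A10 replicate 2 and A0 replicate 2.

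Atp5g2 encodes subunit c of the mitochondrial ATP synthase and has sister genes, so part of its count may be shared with them. It had 46.6, 41.7 and 36.1 CPM in A10 libraries, against 63.4, 69.7 and 70.5 CPM in A0 libraries. With busulfan it had 44.4, 52.4 and 44.2 CPM in BA10 libraries, against 58.8, 53.5 and 52.8 CPM in BA0 libraries. The gap was wide without busulfan, where edgeR called it (log2 fold change -0.71 ± 0.11, adjusted p 0.0367), and narrow with it (-0.23 ± 0.11).

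Gdpd3, which encodes a lysophospholipase D, gave the largest pooled log2 fold change of the 24 (-5.86 ± 1.25), and this came from 3 libraries. The 9.79 and 9.05 CPM of BA0 replicates 1 and 2 and the 7.21 CPM of A0 replicate 3 stood against 0.126 to 0.402 CPM in the other 3 libraries without AOS and 0 to 0.184 CPM in the 6 with AOS. Gdpd3 passed the filter on reads only through those 3 high libraries, all without AOS. Its SE and its DESeq2 call therefore describe the values and are no test of AOS. Camk2b, a calcium-dependent kinase that DESeq2 called lower, had the same form, with 32.2 CPM in A0 replicate 3, 33.2 CPM in BA0 replicate 1, 2.32 CPM in BA0 replicate 2 and at most 0.126 CPM in the other 9 libraries. It too passed the filter only through libraries without AOS, and the same limit holds for its call. Dact2, an inhibitor of Wnt signalling, was the last of the leading lower genes called by DESeq2 (-0.61 ± 0.14). The 6 not called (Dcps, Uqcc2, Tfap4, Itga7, Tmem177 and Scrn2) had pooled log2 fold changes between -0.53 and -0.28.

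The leading genes differed in length. The median length of the longest annotated transcript was 5899.5 bases for the 12 higher and 1899.5 bases for the 12 lower genes, against 3411 over all tested genes, and the median GC content was 47.7%, 54.1% and 49.5% in that order. The same ordering held among the genes without overlap in both strata, with medians of 4793 bases for the 115 higher and 2194.5 bases for the 56 lower ones. Each library's trends over length and GC content were then removed. An unadjusted edgeR p under 0.05 was reached by 11 of the 12 higher and all 12 lower leading genes. Their adjusted p lay between 0.128 and 0.558. Without A0 replicates 1 and 2 the pooled log2 fold changes were 0.22 to 1.10 for the higher genes. For the lower ones they were -6.55 to -0.20. The genes were chosen by their pooled p, and these fits reuse most of the libraries, so the values are a description and no test.

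Of the other genes called by DESeq2, those higher with AOS included Adamts1, a secreted protease (pooled log2 fold change 0.71), Aqp1, a water channel (0.48), Adgrl4 (0.71) and Adgrf5 (0.62), both adhesion G protein-coupled receptors of endothelium, and Plxnc1, a semaphorin receptor (0.67). Mertk, the receptor with which macrophages and endothelial cells take up dying cells, was 0.48 higher and Tnfaip3, a brake on NF-κB signalling, 1.28 higher (0.64 in A10 vs A0 and 1.82 in BA10 vs BA0). Txnip, an inhibitor of thioredoxin (0.48), and Gatm, which makes the precursor of creatine (0.70), were higher too. Lower were Serpine2, a protease inhibitor (-1.63), Scara5, a ferritin receptor (-1.22), Nnmt, which methylates nicotinamide (-2.61), Adamtsl2 (-0.86) and Mup13 (-1.14), whose reads cannot be told from those of other major urinary protein genes. Of the 45 genes, 4 carry an identifier with no annotated function. These genes were named because DESeq2 called them, after their values were seen.

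Markers of sinusoidal and vascular endothelium had the largest share of genes with the same sign in both strata (94.4%) among the lists with at least 9 tested genes. All 18 passed the filter, 17 were higher with AOS in the pooled fit (51.3% of all genes were) and 16 were higher in both strata, where 25.8% of all genes were. An unadjusted pooled p under 0.05 was reached by 13 of 18 higher and 0 lower, against 7.03% and 4.85% of all genes, and edgeR called none after adjustment. In A10 vs A0 alone 15 were higher at an unadjusted p under 0.05, as were 1826 of all 12979 genes. In BA10 vs BA0 alone 3 were higher and 1 lower, against 2.24% and 2.21% of all genes. Only 3 were higher at that level in both strata, against 0.416% of all genes. The median log2 fold change was 0.44 pooled, 0.66 in A10 vs A0 and 0.23 in BA10 vs BA0, against 0.01, 0.03 and -0.01 over all genes. DESeq2 called Clec4g, Kdr and Stab1.

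Clec4g (gene 75863, chr8:3707064-3720651), a lectin of liver sinusoidal endothelium, had 32.7, 36.4 and 40.3 CPM in A10 libraries, against 27.2, 26.2 and 24.7 CPM in A0 libraries. It had 44.1, 46.2 and 47.1 CPM in BA10 libraries, against 34.1, 38.1 and 39.9 CPM in BA0 libraries. AOS libraries were higher in both strata with no overlap, and the log2 fold change was 0.49 ± 0.10 in A10 vs A0 (edgeR adjusted p 0.0409) and 0.30 ± 0.09 in BA10 vs BA0.

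Kdr (gene 16542, chr5:75932827-75978458), the main receptor for vascular endothelial growth factor, had 42.5, 34.6 and 42.0 CPM in A10 libraries, against 21.4, 20.4 and 22.9 CPM in A0 libraries. It had 45.4, 47.3 and 52.9 CPM in BA10 libraries, against 34.8, 37.8 and 47.3 CPM in BA0 libraries. The groups were far apart without busulfan (0.88 ± 0.13, edgeR adjusted p 0.0324) and met with it (0.28 ± 0.13). Stab1 (gene 192187, chr14:31139013-31168641), a scavenger receptor, had 28.2, 23.5 and 32.5 CPM in A10 libraries, against 17.1, 17.1 and 16.9 CPM in A0 libraries. It had 31.9, 33.3 and 47.5 CPM in BA10 libraries, against 25.2, 28.0 and 33.6 CPM in BA0 libraries, again clear without busulfan and overlapping with it. Pecam1, an adhesion molecule of endothelial junctions, was higher without overlap in both strata (0.59 ± 0.17 in A10 vs A0 and 0.35 ± 0.16 in BA10 vs BA0) but was not called by DESeq2 (adjusted p 0.0683).

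The summed level of the 18 markers was 355 to 511 CPM in A10 libraries, against 264 to 278 CPM in A0 libraries, with no overlap. With busulfan it was 464 to 602 CPM in BA10 libraries, against 458 to 575 CPM in BA0 libraries, which overlap. The 3 A0 libraries were the lowest of the 12, and they were also the lowest in lung markers, which summed to 0.401 to 0.969 CPM there and to 6.10 to 8.94 CPM in the other 9 libraries. The part of this in the result was not tested. In bulk RNA, more cells of a type and more RNA per cell cannot be told apart. Leaving out any 1 library kept the pooled median between 0.35 and 0.49, removing the length and GC trends gave 0.46 with 14 markers at an unadjusted p under 0.05, and leaving out A0 replicates 1 and 2 gave 0.35 with 6. The members that broke the pattern, chosen after their values were seen, were Vwf, the clotting factor carrier of larger vessels, at -0.30 pooled and lower in both strata, and Ly6a, which is also expressed by other cells, at 1.73 in A10 vs A0 and -1.21 in BA10 vs BA0.

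**Figure D3:**
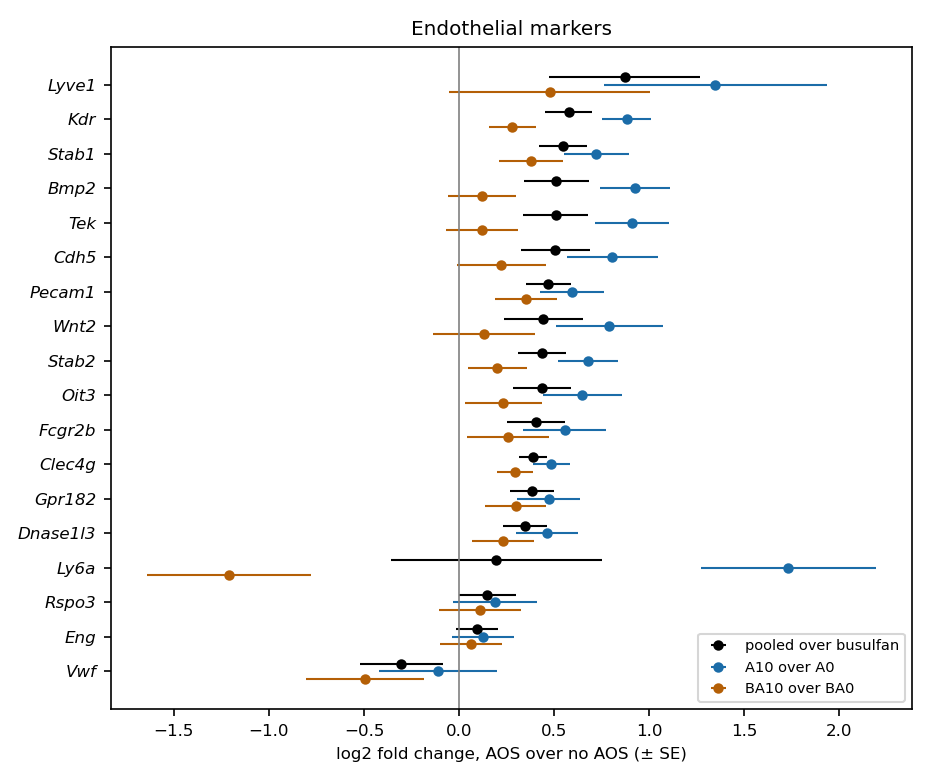
Log2 fold changes with SE of the 18 endothelial markers in A10 vs A0 and in BA10 vs BA0. For 16 markers both values lie above 0, the BA10 vs BA0 value is mostly the smaller, and Ly6a and Vwf depart from this.

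The promoters of the endothelial genes on which this description turns, and of Rasgrp3, are shown because their transcripts move together and ETS and GATA factors are known regulators of endothelial genes. The sequences are the 250 bases before the start of the gene as RefSeq annotates it in GRCm38.p6, 5′ to 3′ on the gene's strand, for Clec4g (chr8:3720652-3720901, minus strand), Kdr (chr5:75978456-75978705, minus strand), Stab1 (chr14:31168642-31168891, minus strand) and Rasgrp3 (chr17:75435655-75435904, plus strand). Capitals mark matches, on either strand, to the ETS core AGGAAG or to its other common form CCGGAA. The GATA motif that was searched as well is AGATAA. Zbtb16 was looked up too and had no entry.
Clec4g: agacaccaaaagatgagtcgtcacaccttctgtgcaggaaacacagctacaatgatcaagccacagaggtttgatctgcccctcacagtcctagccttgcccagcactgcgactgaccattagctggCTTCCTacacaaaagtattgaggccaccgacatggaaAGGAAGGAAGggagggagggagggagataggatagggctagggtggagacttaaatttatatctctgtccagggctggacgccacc
Kdr: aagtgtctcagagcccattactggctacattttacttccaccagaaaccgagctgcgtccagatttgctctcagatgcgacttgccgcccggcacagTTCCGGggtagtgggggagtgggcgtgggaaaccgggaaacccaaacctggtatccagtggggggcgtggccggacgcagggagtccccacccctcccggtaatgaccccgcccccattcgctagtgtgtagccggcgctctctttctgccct
Stab1: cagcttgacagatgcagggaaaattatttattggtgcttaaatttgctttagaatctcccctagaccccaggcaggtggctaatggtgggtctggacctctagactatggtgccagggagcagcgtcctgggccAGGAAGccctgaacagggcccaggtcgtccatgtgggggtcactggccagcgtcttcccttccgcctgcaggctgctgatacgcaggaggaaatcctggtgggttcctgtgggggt
Rasgrp3: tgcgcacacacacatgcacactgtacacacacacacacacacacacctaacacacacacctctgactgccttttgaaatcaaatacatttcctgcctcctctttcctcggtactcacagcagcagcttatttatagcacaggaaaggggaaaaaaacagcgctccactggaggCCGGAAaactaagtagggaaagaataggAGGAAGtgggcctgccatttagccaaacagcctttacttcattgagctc

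Clec4g held 3 matches to AGGAAG, of which a pair overlap by 2 bases, Stab1 held 1, Kdr held 1 match to CCGGAA, and Rasgrp3 held 1 of each. AGATAA was found in none of the 4 windows. Of 32851 promoter windows of the same length, 29.5% held AGGAAG, 12% CCGGAA and 9.99% AGATAA, so such matches are common. A match is a description of the letters and says nothing of binding.

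Other lists were described in the same way, by counts and medians. Glucocorticoid-responsive and metallothionein genes were higher with AOS in 13 of 17, against 51.3% of all genes, with a pooled median of 0.27. At an unadjusted p under 0.05, 6 were higher (35.3%) and 1 lower (5.88%), against 7.03% and 4.85% of all genes. The medians of the strata were 0.26 in A10 vs A0 (0.10 with length and GC trends removed) and 0.06 in BA10 vs BA0, where leaving out BA0 replicate 2 gave 0.53 and leaving out BA0 replicate 3 gave -0.03. Beside Zbtb16, Sgk1, a salt-regulating kinase, had nearly the same log2 fold change in each stratum (0.67 ± 0.30 in A10 vs A0 and 0.64 ± 0.29 in BA10 vs BA0), although its libraries overlapped in both. In this list 7 of 17 genes were higher and 4 lower in both strata, against 25.8% and 23.8% of all genes. Per1, a clock gene, was 0.62 higher, with 0.50 in A10 vs A0 and 0.73 in BA10 vs BA0.

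Heat shock genes had a pooled median of 0.20. At an unadjusted p under 0.05, 9 of 26 were higher (34.6%) and 0 lower, against 7.03% and 4.85% of all genes. In both strata 12 were higher and none lower, against 25.8% and 23.8% of all genes. The median was 0.42 in BA10 vs BA0, with all 26 positive, and -0.03 in A10 vs A0. The A10 vs A0 value turned with single libraries, to 0.19 without A0 replicate 2 (15 genes then higher in both strata) and 0.22 without A0 replicates 1 and 2. Dnaja1, a co-chaperone of Hsp70, was called by DESeq2 and differed alike in both strata, with 171, 215 and 333 CPM in A10 libraries against 147, 173 and 160 CPM in A0 libraries, and 532, 365 and 379 CPM in BA10 libraries against 211, 318 and 273 CPM in BA0 libraries. Its log2 fold change was 0.58 in A10 vs A0 and 0.67 in BA10 vs BA0, with overlap only without busulfan. Hspa4l (0.54), Dnajb4 (0.57) and Hspa8 (0.59), all chaperones or their partners, were higher in both strata without being called by either tool.

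Among 28 targets of p53, the damage-response factor, 12 were higher and 6 lower in both strata, against 25.8% and 23.8% of all genes. At an unadjusted p under 0.05, 4 were higher (14.3%) and 1 lower (3.57%), against 7.03% and 4.85% of all genes. The medians were 0.14 in A10 vs A0 and 0.09 in BA10 vs BA0, and without BA0 replicate 3 the BA10 vs BA0 median was -0.01. Trp53inp1, a stress protein of this pathway, had 48.9, 47.1 and 76.6 CPM in A10 libraries, against 24.95, 45.3 and 39.1 CPM in A0 libraries. It had 255, 168 and 174 CPM in BA10 libraries, against 62.2, 115 and 91.5 CPM in BA0 libraries. AOS libraries were above the others in both strata, on top of a higher level with busulfan (pooled log2 fold change 0.91 ± 0.21, DESeq2 adjusted p 0.0126). Pmaip1 (1.06), Btg2 (0.98) and Mdm2 (0.19) were the others with the smallest p.

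Genes of cholesterol synthesis were lower in both strata in 18 of 25, against 23.8% of all genes, and higher in both in 1, Idi1. The median was -0.15 pooled, -0.32 in A10 vs A0 and -0.12 in BA10 vs BA0. The BA10 vs BA0 median was 0.12 without BA0 replicate 1 and 0.04 without BA10 replicate 2. Only Mvk, mevalonate kinase (-0.50), had an unadjusted p under 0.05, none did with the trends removed or without A0 replicates 1 and 2, and the mean deviation of the list overlapped between A10 and A0 and between BA10 and BA0 libraries. Amino acid and urea cycle genes were lower in both strata in 17 of 31, against 23.8% of all genes. At an unadjusted p under 0.05 there were 2 (6.45%), Nags and Hpd, against 4.85% of all genes, and 0 with the trends removed or without A0 replicates 1 and 2. The A10 vs A0 median was -0.25, and -0.07 without A0 replicates 1 and 2.

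Genes of endoplasmic reticulum stress were higher in both strata in 15 of 29 and lower in both in none, against 25.8% and 23.8% of all genes. The medians were 0.14 in A10 vs A0 and 0.15 in BA10 vs BA0. At an unadjusted p under 0.05, 5 were higher (17.2%) and 1 lower (3.45%), against 7.03% and 4.85% of all genes. The higher ones were led by Herpud1 (0.74) and Dnajb9 (0.70). The summed level was 4924, 4911 and 7624 CPM in A10 libraries, against 5972, 5507 and 4877 CPM in A0 libraries, and 7461, 7299 and 7205 CPM in BA10 libraries, against 6334, 7305 and 6172 CPM in BA0 libraries. A10 replicate 3 alone was high without busulfan. Without it the A10 vs A0 median was -0.24, 7 genes were higher in both strata, and the pooled log2 fold changes of Herpud1 and Dnajb9 were 0.50 and 0.44. Without A0 replicates 1 and 2 the A10 vs A0 median was 0.28.

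**Figure D4:**
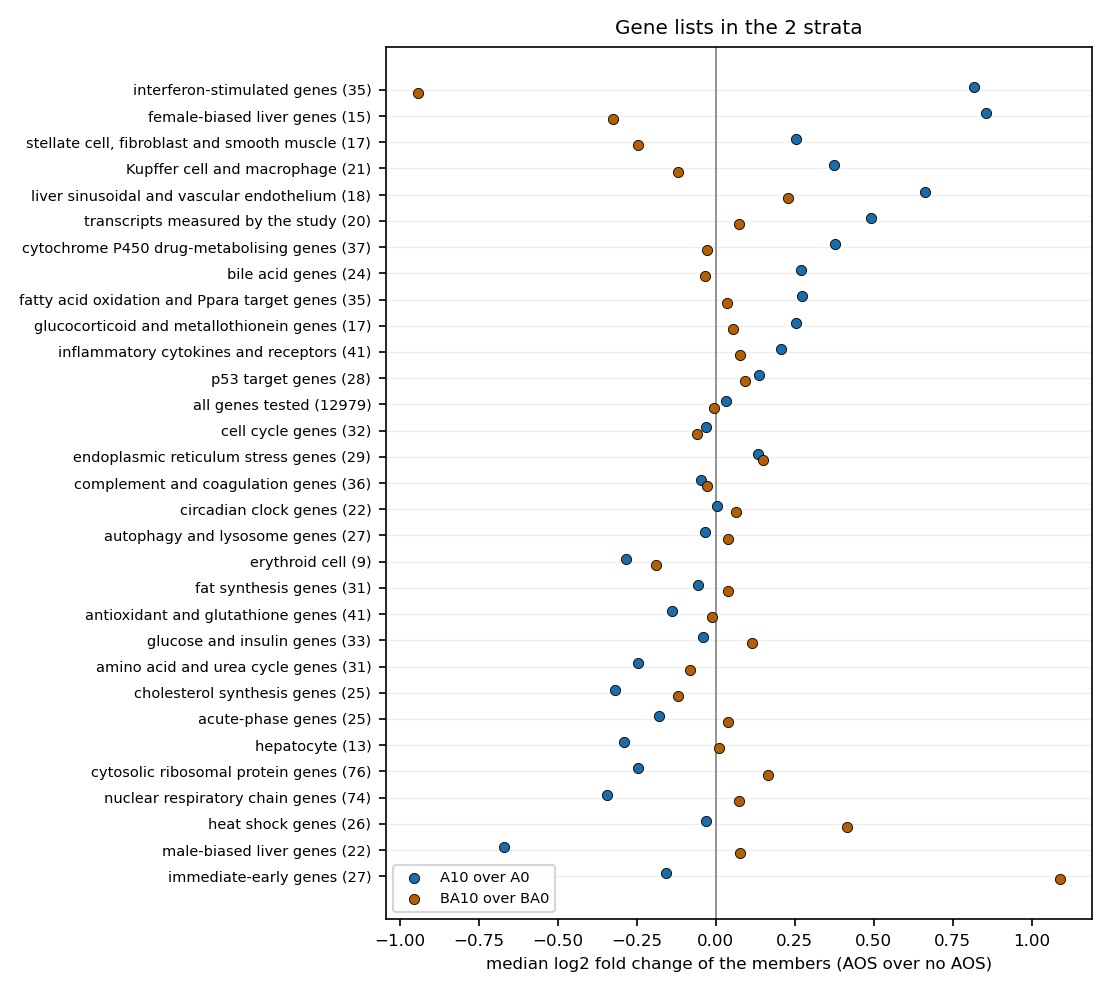
Median log2 fold change of each gene list with at least 9 tested genes, in A10 vs A0 and in BA10 vs BA0. The endothelial list has both medians above 0 (0.66 and 0.23), the cholesterol list both below 0 (-0.32 and -0.12), and the interferon and immediate-early lists have medians of opposite sign.

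For some lists a pooled value near 0 stood for stratum medians of opposite sign. The 35 interferon-stimulated genes had medians of 0.82 in A10 vs A0 and -0.94 in BA10 vs BA0, and none was called in either. In both strata 1 gene was higher and 2 were lower, against 25.8% and 23.8% of all genes. Single libraries carried this. The summed level was 971, 1117 and 1912 CPM in A10 libraries, against 855, 1030 and 811 CPM in A0 libraries, and without A10 replicate 3 the A10 vs A0 median was -0.28. With busulfan it was 896, 1535 and 917 CPM in BA10 libraries, against 973, 2555 and 1556 CPM in BA0 libraries, and without BA0 replicate 2 the BA10 vs BA0 median was -0.26.

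Ifit1, an antiviral protein that binds foreign RNA and was picked after its values were seen, shows the pattern. It had 3.89, 2.82 and 14.5 CPM in A10 libraries, against 2.01, 2.89 and 1.94 CPM in A0 libraries. It had 1.96, 5.79 and 1.65 CPM in BA10 libraries, against 2.04, 48.2 and 7.3995 CPM in BA0 libraries. A10 replicate 3 and BA0 replicate 2 stood above all others, and the difference of its stratum effects was not called (-4.23 ± 1.42, edgeR adjusted p 0.22). Its promoter, shown for contrast with the endothelial ones (250 bases before the RefSeq start, GRCm38.p6, chr19:34640639-34640888, plus strand), holds 2 matches to the interferon response motif (GAAA, any 2 bases, GAAA), in capitals and on the opposite strand, a motif found in 2.98% of promoter windows.
Ifit1: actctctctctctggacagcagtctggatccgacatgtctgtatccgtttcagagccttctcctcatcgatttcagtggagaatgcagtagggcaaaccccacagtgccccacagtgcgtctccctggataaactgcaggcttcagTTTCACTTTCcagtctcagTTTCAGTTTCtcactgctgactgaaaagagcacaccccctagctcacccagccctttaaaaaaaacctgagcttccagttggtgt

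Immediate-early genes, which are switched on within minutes of a stimulus, had medians of -0.16 in A10 vs A0 and 1.09 in BA10 vs BA0 over 27 genes. The A10 vs A0 median was 0.14 without A10 replicate 1, with 16 of the 27 then higher in both strata, and -0.01 with length and GC trends removed. In BA10 vs BA0 all 27 were positive, against 48.7% of all genes. There 20 were higher at an unadjusted edgeR p under 0.05, against 2.24% of all genes. After adjustment 5 were called higher (Egr1, Fos, Nr4a1, Junb and Ier2), against 0.0462% of all genes. The interaction test called 4 as larger with busulfan, against 0.0308% of all genes. Egr1, a zinc finger factor of this class, had 2.84, 2.41 and 9.24 CPM in A10 libraries, against 6.69, 4.84 and 3.15 CPM in A0 libraries. It had 251, 126 and 178 CPM in BA10 libraries, against 1.11, 2.204 and 2.75 CPM in BA0 libraries. The groups overlap without busulfan and are far apart with it (log2 fold change -0.01 and 6.51 ± 0.56). Its pooled log2 fold change of 3.33 thus stood for only 1 of the strata.

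**Figure D5:**
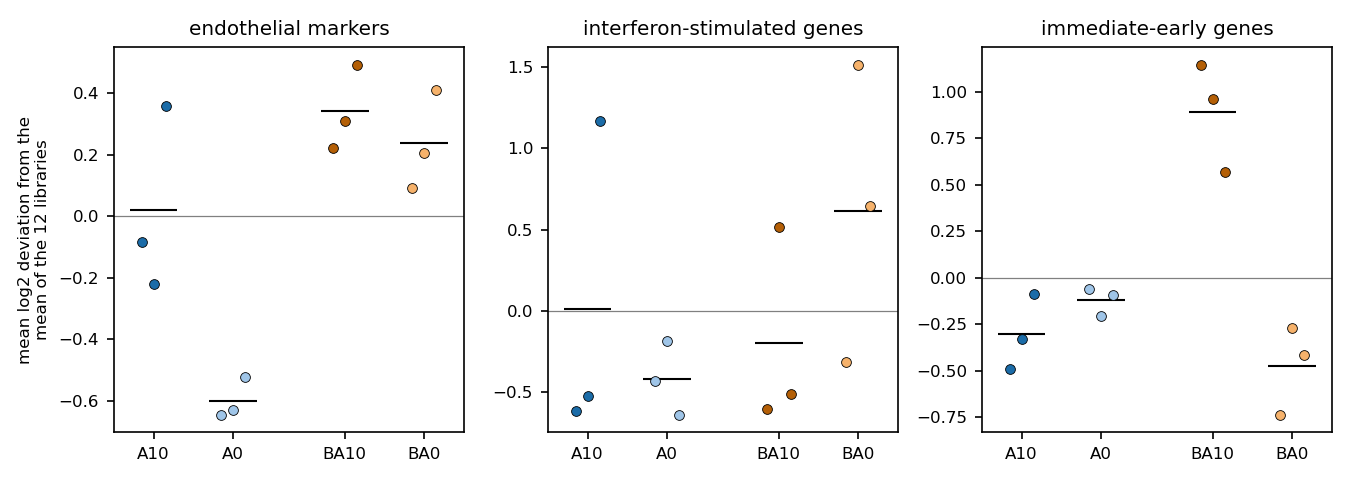
Mean log2 deviation of the endothelial, interferon-stimulated and immediate-early lists in each of the 12 libraries, grouped as A10, A0, BA10 and BA0. The endothelial values are lowest in the 3 A0 libraries, the interferon values are highest in A10 replicate 3 and BA0 replicate 2, and the immediate-early values are high in the 3 BA10 libraries only.

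The effect of AOS differed between the strata, by the interaction test of edgeR over all genes, in 7 genes (4 with a larger and 3 with a smaller log2 fold change with busulfan, 0.0308% and 0.0231% of those tested). Ier2, an immediate-early gene, fell in A10 vs A0 and rose in BA10 vs BA0. It had 12.4, 12.3 and 10.4 CPM in A10 libraries, against 20.0005, 16.8 and 17.1 CPM in A0 libraries, and 22.5, 20.4 and 21.2 CPM in BA10 libraries, against 7.17, 8.18 and 6.71 CPM in BA0 libraries. The groups do not overlap in either stratum and lie in opposite order. Junb and Jund, partners of Fos in the AP-1 factor, were lower in A10 than in A0 libraries and higher in BA10 than in BA0 libraries, again without overlap.

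Cd163, the haemoglobin scavenger receptor of macrophages, went the other way, with 12.2, 11.4 and 9.88 CPM in A10 libraries against 4.68, 6.29 and 4.42 CPM in A0 libraries, and 0.796, 1.29 and 2.205 CPM in BA10 libraries against 11.1, 4.76 and 8.09 CPM in BA0 libraries. It fell with AOS after busulfan (-2.46, edgeR adjusted p 0.0421) and was not called without it (1.12, adjusted p 0.0731). The 21 Kupffer cell and macrophage markers had medians of 0.37 in A10 vs A0 and -0.12 in BA10 vs BA0. Of these, 11 were higher without and lower with busulfan, as Cd163 was, and 2 the reverse. Over all 12979 genes these classes held 3569 and 2969. Another 4 each were higher or lower in both, against 25.8% and 23.8% of all genes. Without A10 replicate 3 the A10 vs A0 median was -0.0035, without A0 replicates 1 and 2 it was 0.68, and without BA0 replicate 3 the BA10 vs BA0 median was 0.05.

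The other 2 interaction genes are markers of lung. Scgb1a1, the club cell secretory protein, had 3.65, 5.999 and 4.74 CPM in A10 libraries, against 0, 0.0629 and 0.121 CPM in A0 libraries, and 5.26, 4.45 and 5.07 CPM in BA10 libraries, against 4.08, 4.81 and 5.56 CPM in BA0 libraries. Sftpc, a surfactant protein, had 1.39, 1.65 and 2.14 CPM in A10 libraries and no read in the A0 libraries, so that A10 was at least 9.07-fold higher than a floor of 3 counts per library. It had 1.41, 0.672 and 1.43 CPM in BA10 libraries, against 1.34, 2.03 and 1.89 CPM in BA0 libraries. The A0 libraries stood alone, and 9 of 12 libraries held these transcripts at like levels. Of the lung markers in the file 3 of 8 passed the filter, with sums of 6.21 to 8.94 CPM in A10, 0.401 to 0.969 CPM in A0, 6.10 to 8.02 CPM in BA10 and 6.12 to 8.20 CPM in BA0 libraries. Their part in other differences of A10 vs A0 was not tested.

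Markers of lymphocytes, neutrophils and exocrine pancreas mostly failed the filter on low counts. T and NK cell markers passed it in 3 of 12 (1 higher and 2 lower in both strata), B cell markers in 3 of 9, neutrophil markers in 4 of 12 and pancreas markers in 2 of 22. The pancreatic elastases Cela1 and Cela2a were lower in both strata, as were 23.8% of all genes. Their summed levels were 13.6 to 18.1 CPM in A10 and 22.1 to 23.2 CPM in A0 libraries. With busulfan they were 15.3 to 20.6 CPM in BA10 and 19.1 to 56.1 CPM in BA0 libraries. Both had an unadjusted pooled p under 0.05 by edgeR, against 4.85% of all genes lower at that level. Cela2a passed the filter in only 9 of the 12 fits with 1 library left out, so it hung on few libraries. The mean log2 deviation of the 2 genes was 2.61 in BA0 replicate 2 and below 0 in every AOS library. The p of Cela2a therefore describes the values and is no test of AOS. Hepatocyte markers had medians of -0.29 in A10 vs A0 (-0.07 with length and GC trends removed and -0.09 without A0 replicates 1 and 2) and 0.01 in BA10 vs BA0, with sums that overlap in both strata.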

How the data were processed

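Liver RNA of 12 libraries was enriched with oligo(dT) beads, fragmented, primed with random hexamers and sequenced. The authors aligned reads to reference genes with SOAPaligner (build mm10) and deposited estimated counts per gene, of which 78.6% to 80.3% per library were whole within 1e-06. Their annotation, their counter and the origin of the decimals: not given in the sources used here. Deposited RPKM values, the counts divided by gene length and library total, were not tested. The 8 columns of group means made by the authors were not used. Here counts were rounded to whole numbers, scaled by TMM and fitted in edgeR 4.0.16 (R 4.3.3) by the quasi-likelihood test with terms for busulfan and AOS (9 residual degrees of freedom, common biological coefficient of variation 0.216), and in a fit of the 4 groups for the strata, their difference and the conjunction. The adjusted p over all genes had a threshold of 0.05, two-sided. The study itself used DEGseq, which takes no account of the spread between libraries. Alternatives used DESeq2 1.42.0, limma 3.58.1, other scalings, filters and designs, a replicate block, and left-out libraries; scripts were tested on simulated counts. GENCODE M21 gave coordinates, GC content and transcript length, and matched 12288 (94.7%) of the tested genes. The file pairs each identifier with a symbol.

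Named genes were to be those passing the conjunction or the pooled test, filled with the 12 smallest p in each direction without overlap in either stratum, up to 4 per list of smallest p, and up to 10 interaction genes. The 38 gene lists, the members and this rule were chosen with earlier results of these data known. Intervals, where a floor of counts is given, cover counting error only.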

Additional observations from a re-analysis of the deposited data

Results flagged for a closer look

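The 7 genes whose AOS effect differed between mice with and without busulfan (interaction test over all genes, edgeR) are given as log2 fold change of BA10 vs BA0 minus that of A10 vs A0. Ier2 differed by 2.16 ± 0.17 (adjusted p 0.0004), Junb by 3.24 ± 0.36 (0.00541), Egr1 by 6.52 ± 0.73 (0.00541) and Jund by 1.10 ± 0.16 (0.0297), each with the larger value with busulfan. Scgb1a1 differed by -6.06 ± 0.52 (adjusted p 0.000704), Sftpc by -8.47 (0.00995), a fitted value that is no bound because the A0 libraries held no read, and Cd163 by -3.58 ± 0.49 (0.0238). Over 25 alternatives each kept its sign, and it stayed called in 25 for Ier2, 24 for Scgb1a1 and Egr1, 23 for Junb, 22 for Sftpc and 14 for Cd163 and Jund. DESeq2 called 272 genes in the same test. Dixon's limit was applied to each leading and interaction gene, in the 6 libraries with AOS and in the 6 without. It flagged no library in these 62 sets. The sets mix mice with and without busulfan, so they say little of a library that departs from its own group.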

How the results depend on the processing

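The pooled comparison called no gene under any alternative except DESeq2 (33 higher, 12 lower, 22 without overlap) and the mean of the stratum contrasts in the 4-group fit (6 higher, 0 lower, 2 without overlap). These 6 were Zbtb16, Rasgrp3, Fos, Egr1, Scgb1a1 and Sftpc, of which the last 4 differed mainly in 1 stratum. The conjunction called 0 genes throughout. All named genes kept the sign of their pooled log2 fold change in each alternative in which they were fitted. Most were chosen by their pooled values, and the alternatives reuse most of the libraries, so a kept sign is a description and no test. Gdpd3, Camk2b and Cela2a were fitted in only 9 of the 12 runs with 1 library left out. A10 vs A0 (460 calls) gave 20 without a filter on low counts, 1310 with DESeq2, 2 with the stratum fitted alone, 1 without A0 replicates 1 and 2, 3 with length and GC trends removed, 21 with those trends removed and a replicate block, 1971 with voom and sample quality weights (chosen after seeing the data), and 1 to 1701 with single libraries left out. BA10 vs BA0 (7 calls) gave 11 without the filter, 38 with DESeq2, 3 with the stratum alone, 14 with voom and weights, and 3 to 12 with single libraries left out. The difference of the strata (7 calls) gave 272 with DESeq2, 2 without A0 replicates 1 and 2, 72 with voom and weights, and 5 to 252 with single libraries left out. The causes were not tested. Genes at an unadjusted p under 0.05 in both strata in the same direction (76) numbered 46 to 91 with single libraries left out and 31 without A0 replicates 1 and 2.

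Correlations of same-numbered deviations were 0.01, 0.07 and -0.10 in A10 and A0, where unlike-numbered ones ran from -0.13 to 0.10. In BA10 and BA0 they were 0.13, 0.18 and 0.01, against -0.19 to 0.07 for unlike numbers. These values do not settle whether libraries of the same number were paired. With the replicate number as a block the pooled calls stayed at 0 and 0, A10 vs A0 gave 515, BA10 vs BA0 gave 5 and their difference 6. Depth was alike in all libraries, the common coefficient of variation was 0.216, and each group had 3 libraries.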

Other observations

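Mrc1, the mannose receptor of macrophages and sinusoidal endothelium, had 44.1, 35.9 and 48.2 CPM in A10 libraries, against 16.1, 20.6 and 18.9 CPM in A0 libraries. It had 48.5, 45.6 and 55.8 CPM in BA10 libraries, against 35.9, 37.5 and 56.7 CPM in BA0 libraries. It rose without busulfan (1.21 ± 0.18, edgeR adjusted p 0.0367), and with busulfan the groups overlapped (0.20 ± 0.18). Il6ra, a receptor chain for interleukin 6, had the same form, with 0.66 ± 0.14 in A10 vs A0 (adjusted p 0.0409) and 0.25 ± 0.14 in BA10 vs BA0. Il1a, an alarm cytokine, had 0.50 ± 0.31 in A10 vs A0 and 1.17 ± 0.30 in BA10 vs BA0, and neither was called. Among 41 inflammatory cytokines and receptors, 16 were higher and 4 lower in both strata, against 25.8% and 23.8% of all genes. The sign was the same in both strata for 20 of the 41, against 49.6% of all genes. At an unadjusted pooled p under 0.05, 9 were higher and 2 lower, against 7.03% and 4.85% of all genes. With length and GC trends removed, 11 were higher and 1 lower at that level. The medians were 0.21 in A10 vs A0 (0.30 without A0 replicates 1 and 2) and 0.08 in BA10 vs BA0.

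Genes of the nuclear respiratory chain had medians of -0.34 in A10 vs A0 and 0.07 in BA10 vs BA0, and the A10 vs A0 median was -0.15 with length and GC trends removed and -0.26 without A0 replicates 1 and 2. Cytosolic ribosomal protein genes had medians of -0.25 in A10 vs A0 (0.0037 with the trends removed and -0.20 without A0 replicates 1 and 2) and 0.17 in BA10 vs BA0. Male-biased liver genes, among them the major urinary proteins whose copies share reads, had -0.67 in A10 vs A0 (-0.32 without A0 replicates 1 and 2) and 0.08 in BA10 vs BA0. Female-biased genes had 0.86 in A10 vs A0 and -0.32 in BA10 vs BA0, and the BA10 vs BA0 median was 0.45 without BA0 replicate 2. Mt1, a metal-binding metallothionein, rose in A10 vs A0 (3.22 ± 0.77, adjusted p 0.0475) and had -0.08 ± 0.71 in BA10 vs BA0. Cd36, a fatty acid transporter, rose in A10 vs A0 (1.35 ± 0.26, adjusted p 0.0409) and had 0.33 ± 0.25 in BA10 vs BA0. The A10 vs A0 calls share the dependence on single libraries given for that comparison. Differences between strata were not called for these genes.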
